A study of Mus musculus with 17 samples.

Results

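Spinal V1 and dI4 interneurons were compared at postnatal day 5 (P5) on 5 of the 17 arrays of the series, 3 of V1 cells and 2 of dI4 cells. The cells were sorted for yellow fluorescent protein (YFP) after dissociation of the spinal cord, from En1-Cre; Rosa.lsl.YFP animals for V1 and Ptf1a-Cre; Rosa.lsl.YFP animals for dI4 (which the labels also call dILA), and their amplified RNA was hybridised to Affymetrix mouse expression arrays. Both groups carried the same YFP reporter at the Rosa locus, which stays on in every descendant of a cell that once made the Cre recombinase. Each sort therefore holds cells with a history of the driver gene, whether or not they express it at P5. The labels call the arrays biological replicates and do not give the number of animals behind each, or the segments of the cord that were taken. Of 20675 genes with a probe set of a single symbol, 11616 had a probe set brighter than the array median on at least 2 of the 5 arrays and were tested. A gene was called different at an adjusted p under 0.05 (limma, Benjamini-Hochberg over all genes tested), and values are log2 expression as deposited, with differences given as V1 minus dI4.

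V1 interneurons are ventral inhibitory neurons that arise from the p1 progenitor domain and express En1, a homeodomain repressor; they include Renshaw cells and Ia inhibitory interneurons and act on motor neurons. dI4 and dILA interneurons arise from dorsal progenitors that transiently express Ptf1a, a bHLH factor that works in a complex with Rbpj and selects the inhibitory over the excitatory dorsal fate. They settle mostly in the dorsal horn, where they shape sensory input. Neurons of both classes release GABA, glycine or both, and they differ in dorsoventral origin. The arrays also carried transcripts of other cells, so the sorts are not read as inhibitory neurons alone. On the dI4 arrays the summed signal of 31 astrocyte markers was 18.30 and 17.92 on the log2 scale. That of 18 pan-neuronal genes was 16.91 and 17.07. On the V1 arrays the astrocyte sum was 15.7 to 16.8 and the pan-neuronal sum 17.8 to 17.9. The 2 sums cover different numbers of probe sets, so their sizes do not give shares of RNA. Slc17a6, a gene of excitatory neurons, was at 9.90 and 10.52 on the dI4 arrays.

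En1, the gene behind the V1 sort, was at 10.34, 10.07 and 9.97 on the V1 arrays and at 3.39 and 2.63 on the dI4 arrays, which is 139-fold higher in V1 (difference 7.12 ± 0.29 SE, adjusted p = 0.00159). The groups do not overlap, and the call held when any 1 array was left out. Ptf1a was at the level of the unspiked bacterial control probe sets on all 5 arrays, from 2.11 to 2.26, and was not tested. The dI4 label therefore cannot be checked on its driver at this age and was read from the other transcription factors of that lineage.

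Both sorts carried the transcripts of inhibitory neurons. Gad1 and Gad2, which make GABA, were at 13.19 to 13.51 and 14.54 to 14.55 in V1 and at 12.95 to 13.33 and 13.88 to 14.13 in dI4, with no call for either gene. Chat, which makes acetylcholine in motor neurons, was at control level on all 5 arrays. So were 5 of the 11 motor neuron and cholinergic genes with a probe set, Chat among them. The 2 genes of that list that passed the filter, Ache and Ret, were called higher in V1. Of 11 sensory ganglion genes with a probe set, 8 were at control level on all 5 arrays. Trpv1, Scn10a, Scn11a, P2rx3, Avil, Runx3 and Pou4f2 were among them. Calca passed the filter and was not called (difference 0.11). None of the 7 blood cell markers with a probe set passed the filter.

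Across all genes the 5 arrays fell into their 2 groups. Pearson's r across genes was 0.980 to 0.985 between V1 arrays, 0.990 between the dI4 arrays and 0.948 to 0.961 between the classes, as a description over genes that are not independent. Of the 11616 genes, 2642 (22.7%) were called, 1491 higher in V1 (12.8%) and 1151 lower (9.91%), and 59.8% had V1 and dI4 values that do not overlap. The calls were 56.4% in the higher direction, and 76.1% after the median of every array was subtracted. Leaving out 1 array left 1608 (V1 replicate 1), 1291 (V1 replicate 2), 1335 (V1 replicate 3), 205 (dI4 replicate 1) or 690 (dI4 replicate 2) genes called. Counts given below as leave-one-out counts follow that order of arrays. The calls of every list below are to be read beside the 12.8% higher and 9.91% lower over all genes. Without a dI4 array the other is assumed to vary as the V1 arrays do, so a call that holds there does not check the spread between the dI4 arrays. The filter also lets in genes through 1 class alone, which then had to differ, so list counts and medians describe the genes that passed and not all genes listed. The 14 probe sets of the BioB, BioC and BioD transcripts that are spiked in before hybridisation were all higher on the dI4 arrays than on the V1 arrays at P5, by 0.93 to 1.99 log2 units with no overlap, while at P0 their median difference was -0.04. At P5 this array difference and the cell class cannot be told apart. With 3 arrays against 2, an exact permutation test of a single gene cannot reach 0.05, so the tests rest on the spread limma shares across genes.

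Some of the genes at the extremes carry recognisable motifs at their start sites, and 3 upstream sequences are shown here to make the genes concrete. The 250 bases before each annotated RefSeq transcript start (GRCm38.p6) were searched on both strands for TAATTA, the core bound by many homeodomain proteins such as En1, Otp and Lbx1, and for TGGGAAA, the core bound by Rbpj, the partner of Ptf1a. The 2 motifs do not overlap each other. TAATTA occurs upstream of 5.65% of the 27025 genes of the table and TGGGAAA upstream of 7.77%. Of the 12 genes furthest up in V1, 8 matched the table, with TAATTA at Sp8 and TGGGAAA at Cyp1b1 and Htr1b. Of the 12 furthest down, 10 matched, with TAATTA at Cldn10, Slc17a6 and Tfap2a and TGGGAAA at Tfap2a. The sequences run 5′ to 3′ on the gene's own strand, with the motifs in capitals. Sp8 lies at chr12:118847309-118847558 on the plus strand, Slc17a6 at chr7:51624387-51624636 on the plus strand and Tfap2a at chr13:40734921-40735170 on the minus strand. A match describes these letters and is not a measured site.
Sp8: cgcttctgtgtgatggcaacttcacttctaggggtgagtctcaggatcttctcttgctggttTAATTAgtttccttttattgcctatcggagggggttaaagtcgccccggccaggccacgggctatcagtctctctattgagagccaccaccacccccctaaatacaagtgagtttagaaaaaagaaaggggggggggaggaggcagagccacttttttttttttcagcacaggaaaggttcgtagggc
Slc17a6: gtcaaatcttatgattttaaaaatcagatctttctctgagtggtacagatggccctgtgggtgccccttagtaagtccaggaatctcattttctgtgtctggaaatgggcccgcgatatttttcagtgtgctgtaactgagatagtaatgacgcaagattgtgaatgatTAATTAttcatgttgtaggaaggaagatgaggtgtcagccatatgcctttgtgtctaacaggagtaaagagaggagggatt
Tfap2a: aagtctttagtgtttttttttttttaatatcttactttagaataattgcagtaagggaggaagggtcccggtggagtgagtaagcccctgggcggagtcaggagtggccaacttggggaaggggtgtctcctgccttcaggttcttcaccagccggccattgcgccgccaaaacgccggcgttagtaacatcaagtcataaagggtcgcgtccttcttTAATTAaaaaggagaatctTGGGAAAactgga

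The 12 genes with the largest difference toward V1, outside the lists of other cell types, were led by transcription factors. Otp, a homeodomain factor, stood at 12.53, 12.82 and 13.06 in V1 and at 2.71 and 3.27 in dI4 (difference 9.81 ± 0.27 SE, adjusted p = 0.00087). Nr5a2, an orphan nuclear receptor, stood at 10.66, 10.79 and 11.54 against 1.85 and 1.88, and Sp8, a zinc finger factor, at 10.31, 10.53 and 10.73 against 2.42 and 2.63. The dI4 values of Nr5a2 and Sp8 are at control level, so their ratios are bounds: at least 327-fold and at least 236-fold higher in V1. Foxp2, a forkhead factor, was at 11.38 to 11.50 against 4.99 and 4.30 (6.79 ± 0.25 SE, adjusted p = 0.00135).

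Others of these 12 genes encode signalling and other proteins. Shh, the secreted ligand Sonic hedgehog, was at 9.11, 9.92 and 9.18 in V1 and at 2.53 and 2.61 in dI4, at least 109-fold higher (adjusted p = 0.00195). Htr1b, an inhibitory serotonin receptor, was at 10.49, 11.05 and 10.52 against 2.63 and 3.55 (7.60 ± 0.36 SE). Sncg, gamma-synuclein, was at 8.97, 9.92 and 10.17 against 1.74 and 1.75, at least 133-fold higher. Irs4, an insulin receptor substrate (7.07 ± 0.29 SE), Cyp1b1, a cytochrome P450 (7.25 ± 0.17 SE), and the unnamed transcript 2310076G05Rik (7.35 ± 0.19 SE) were also among them. The 12 genes were chosen among called genes whose V1 and dI4 arrays do not overlap, so their lack of overlap is no further result. Over all genes tested, 59.8% did not overlap. All 12 kept their call whichever V1 array was left out.

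The 12 genes with the largest difference toward dI4 were led by Slc17a6, the vesicular glutamate transporter VGLUT2, which loads glutamate in excitatory neurons. Slc17a6 was at control level on the V1 arrays, at 2.46, 2.43 and 2.44, and at 9.90 and 10.52 on the dI4 arrays, at least 190-fold lower in V1 (adjusted p = 0.00087). Dorsal transcription factors made up much of the rest: Tfap2a, Pax3, Lbx1, Skor1 and Zic1. Calcrl, a receptor for calcitonin gene-related peptide and adrenomedullin, was at 4.01, 4.0 and 5.21 in V1 and at 11.58 and 11.11 in dI4 (-6.94 ± 0.46 SE, adjusted p = 0.00484). Ccnb1 and Spag5, which act in mitosis, were at 2.05 to 2.07 and 4.12 to 4.49 in V1 and at 7.57 to 9.13 and 10.02 to 10.57 in dI4. Lcat, a lipoprotein enzyme that astrocytes secrete in the brain, Plaat3, a phospholipase, and Cldn10, a claudin, differed widely between the V1 arrays, with Lcat at 2.10, 2.08 and 4.87. Slc17a6, Pax3, Lbx1, Ccnb1 and Spag5 kept their call whichever array was left out. The other 7 lost it without at least 1 array, and Lcat, Plaat3 and Cldn10 lost it without 4 of the 5.

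**Figure D1:**
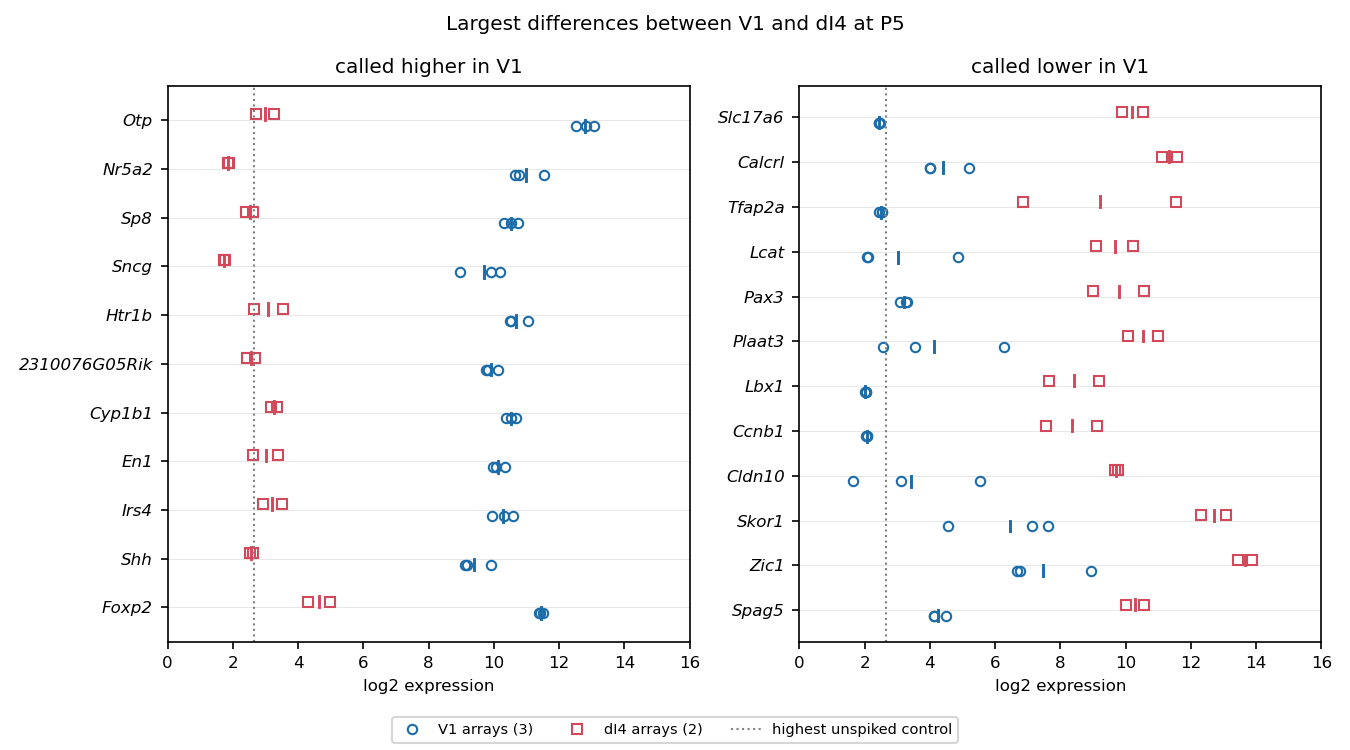
Log2 expression on each P5 array (x axis) of 11 of the 12 genes with the largest called difference toward V1 and the 12 toward dI4 (y axis), with open circles for the 3 V1 arrays, open squares for the 2 dI4 arrays, short bars for the group means and a dotted line at the highest unspiked bacterial control. The 23 genes were chosen among called genes whose V1 and dI4 values are apart. Slc17a6, Tfap2a, Lbx1 and Ccnb1 lie at or below the dotted line on every V1 array.

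The transcription factors that divide V1 neurons into subsets were mostly higher in V1. Of 21 tested, 15 were called higher and 1 lower, with a median difference of 3.56 against 0.04 over all genes tested (leave-one-out counts of higher calls 14, 14, 14, 11 and 10). With dim probe sets kept 13 were called higher with the same median, and among genes above the median on all 5 arrays 6 were, with a median of 1.57. These factors were picked in earlier work on V1 cells of this kind, and list members were chosen with earlier results of these data known. The list is therefore no independent evidence of its direction. Foxd3, a forkhead factor that also marks neural crest and Schwann cell precursors, was at 8.99, 8.71 and 9.04 in V1 and at 1.70 and 1.72 in dI4, at least 77.3-fold higher. Nr2f2 (COUP-TFII), an orphan nuclear receptor, went the other way, at 7.94, 8.46 and 7.91 in V1 and at 11.89 and 12.15 in dI4 (-3.92 ± 0.24 SE, adjusted p = 0.00394). Prdm8, St18 and Bhlhe22 were not called, with differences of 1.16 ± 0.48, 0.80 ± 0.24 and 0.29 ± 0.37 (SE), and their signal was well above background in both classes.

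Renshaw cells, the V1 neurons that receive motor axon collaterals, depend on Onecut factors, among others. Onecut1 was at 6.40, 6.71 and 7.06 in V1 and at control level in dI4, at 2.38 and 2.41, at least 16.9-fold higher (adjusted p = 0.00307). The call held whichever array was left out. Onecut2 (1.51 ± 0.69 SE) and Calb1, the calcium buffer calbindin used to mark mature Renshaw cells (0.57 ± 0.32 SE), were not called. Chrna2, the nicotinic subunit that marks Renshaw cells, was at control level on all 5 arrays. Mafa had no probe set of a single symbol.

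Of 8 tested transcription factors of the dI4 lineage, 5 were called lower in V1 and none higher, with a median of -5.12 (leave-one-out counts of lower calls 4, 3, 4, 4 and 4). With dim probe sets kept 3 were called lower, with a median of -4.0. Among genes above the median on all 5 arrays none was called lower and the median was 0.23, since that filter drops genes that are dim in V1. Lbx1, a homeodomain factor of the dorsal dI4 to dI6 classes, was at 2.03, 2.04 and 2.00 in V1 and at 9.17 and 7.64 in dI4, at least 54.3-fold lower in V1 (adjusted p = 0.00577). Gbx1, a homeodomain factor of dorsal inhibitory neurons, was at 2.44 to 2.47 against 6.34 and 7.35, at least 18.5-fold lower. Tfap2b, an AP-2 factor, was at 2.92 to 3.07 against 9.75 and 7.91 (-5.84 ± 0.57 SE, adjusted p = 0.00907). These 3 genes kept their call whichever array was left out.

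Tfap2a was at control level in V1 and at 11.56 and 6.86 in dI4, so the dI4 arrays lay 4.70 log2 units apart, and its call was lost without any 1 V1 array. Skor1, a corepressor that acts with Lbx1, was at 7.63, 7.13 and 4.57 in V1 and at 13.08 and 12.31 in dI4 (-6.26 ± 1.02 SE, adjusted p = 0.0216). Pax8 and Gbx2 did not pass the test, with differences of 0.58 ± 0.67 and -0.11 ± 0.22 (SE), and Gbx2 lay at 8.58 to 9.10 in V1 and 9.03 on both dI4 arrays. Lhx1 and Lhx5, LIM factors of both classes, were not called either (-1.30 ± 0.70 and 0.04 ± 0.64 SE).

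Zic1, Zic2 and Zic4, zinc finger factors of the dorsal cord that also act in progenitors, were called lower in V1. Zic4 was at 2.34 to 2.43 in V1 and at 7.49 and 6.55 in dI4, at least 20.8-fold lower in V1, and kept its call whichever array was left out. Zic1 was at 8.95, 6.66 and 6.78 against 13.87 and 13.44 (-6.19 ± 0.79 SE), and Zic2 at 3.41 to 3.49 against 9.14 and 6.16 (-4.20 ± 0.90 SE). For each of these genes dI4 replicate 1 was above dI4 replicate 2, and Zic1 and Zic2 lost their call without at least 1 array.

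Markers of dorsal horn inhibitory subsets gave few calls, and of all genes 12.8% were called higher and 9.91% lower. Of 10 tested markers of inhibitory subsets, 1 was called higher and 2 lower, with a median of -1.20 (leave-one-out counts of lower calls 2, 1, 1, 0 and 1). Nos1, neuronal nitric oxide synthase, was at 9.13, 9.54 and 9.54 in V1 and at 2.21 and 5.10 in dI4 (5.75 ± 0.88 SE, adjusted p = 0.0194), and the call was lost without any 1 V1 array. Rorb, a nuclear receptor of dorsal inhibitory cells, was at 6.33 to 7.26 in V1 and at 10.56 and 10.48 in dI4 (-3.84 ± 0.33 SE, adjusted p = 0.00726). Npy, neuropeptide Y, was at 9.78 to 10.25 against 11.02 and 11.59 (-1.31 ± 0.26 SE, adjusted p = 0.0314). Pnoc, Calb2 and Pdyn were not called, at 1.05 ± 0.31, 0.53 ± 0.30 and -1.76 ± 0.46 (SE).

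Of 8 tested markers of dorsal excitatory neurons, 3 were called lower in V1 and none higher, with a median of -1.55 (leave-one-out counts 3, 2, 3, 1 and 1). Beside Slc17a6, described above, Tac1, the precursor of substance P, was at 9.09 to 9.87 in V1 and at 11.58 and 12.19 in dI4 (-2.51 ± 0.34 SE, adjusted p = 0.0157). Maf, a bZIP factor, was at 9.40 to 9.74 against 10.95 and 10.71 (-1.31 ± 0.19 SE, adjusted p = 0.0173). Tlx1, Tlx3 and Phox2a, homeodomain factors that define excitatory classes, were at control level on all 5 arrays, and Lmx1b did not pass the filter. In RNA from a sorted population, fewer cells of a type and less RNA per cell cannot be told apart. Of the ventral excitatory markers, Evx1, a V0 factor, was higher in V1 (1.84 ± 0.29 SE, adjusted p = 0.0208, lost without any array but V1 replicate 2), and Nkx2-2, which marks p3 progenitors and also the oligodendrocyte lineage, was lower (-5.43 ± 0.80 SE, adjusted p = 0.0179).

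Hox genes, whose paralog groups mark positions from the head to the tail end of the body axis, differed by group. Of the 10 tested genes of paralog groups 9 to 13, which pattern the more caudal cord, 8 were called higher in V1 and none lower, with a median of 1.76 (leave-one-out counts 5, 6, 6, 2 and 4). Of the 9 tested genes of groups 4 to 8, none was called higher and 2 lower, with a median of 0.31 (0, 0, 1, 0 and 0 lower calls). Hoxa11 was at 10.63, 9.66 and 9.43 in V1 and at 4.52 and 4.88 in dI4 (5.21 ± 0.42 SE, adjusted p = 0.00621). Hoxd11 was at 11.37 to 11.95 against 8.09 and 7.65 (3.73 ± 0.26 SE, adjusted p = 0.0054), and Hoxd10 at 12.89 to 13.07 against 10.37 and 10.43 (2.60 ± 0.14 SE, adjusted p = 0.00307). These last 2 genes kept their call whichever array was left out.

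Hoxc13 (3.63 ± 0.49 SE), Hoxc10 (1.85 ± 0.14 SE) and Hoxc9 (1.67 ± 0.28 SE) were also higher in V1, while Hoxa9 (-0.62 ± 0.17 SE) and Hoxb9 (-1.48 ± 0.44 SE) pointed to dI4 and were not called. Hoxb6 was at 7.18, 7.32 and 8.50 in V1 and at 9.63 and 9.83 in dI4 (-2.07 ± 0.46 SE, adjusted p = 0.0397), and Hoxd8 was lower in V1 by 1.14 on the log2 scale (± 0.23 SE, adjusted p = 0.0336). Hoxb5, Hoxc4 and Hoxc8 were not called, and Hoxb5 spread from 10.47 to 13.05 over the V1 arrays. The rostrocaudal level of the tissue in each sort is not given in the labels, and its part in the Hox differences was not tested.

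**Figure D2:**
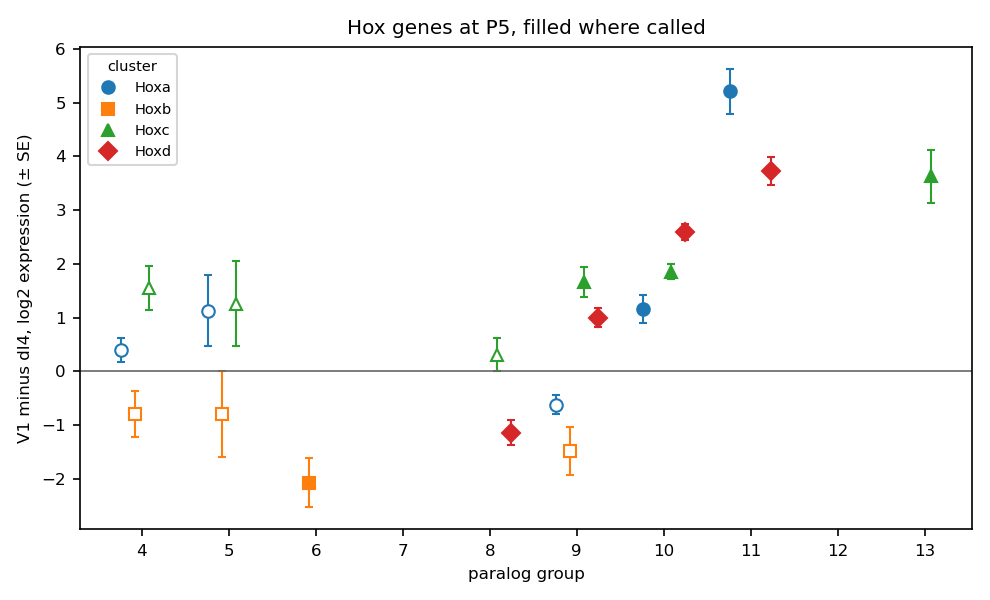
Difference V1 minus dI4 at P5 in log2 expression (y axis, bars ± SE from limma) for the 19 tested Hox genes by paralog group (x axis), with marker shape and colour for the cluster and filled markers for called genes. Filled markers lie above 0 from group 9 on, up to 5.21 for Hoxa11, and the filled markers of groups 6 and 8 lie below 0.

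Genes that all neurons use were higher in V1, which sets the level against which other neuronal lists are read. Of 17 tested pan-neuronal genes, 11 were called higher in V1 and none lower, with a median of 1.14 (leave-one-out counts 9, 7, 7, 1 and 6). Nefh, the heavy neurofilament subunit, was at 9.64, 9.98 and 10.40 in V1 and at 4.23 and 6.45 in dI4 (4.67 ± 0.71 SE, adjusted p = 0.0192). Nefm, the medium subunit, was at 13.24 to 13.34 against 10.62 and 11.18 (2.40 ± 0.22 SE, adjusted p = 0.00799). Nefl, Uchl1, Stmn2 and Elavl4 were higher by 1.28 to 1.48. Map2 (-0.31 ± 0.14 SE), Celf4 (0.51 ± 0.14 SE) and Snap25 (0.54 ± 0.15 SE) were not called. Beside this shift, the summed signal of the astrocyte markers was 15.7 to 16.8 in V1 and 17.9 to 18.3 in dI4 on the log2 scale. How far glial RNA in the dI4 arrays sets the neuronal differences was not tested. With each array centred on the pan-neuronal genes, a choice made after the data were seen, 369 genes (3.18%) were called higher in V1 and 7514 (64.7%) lower.

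**Figure D3:**
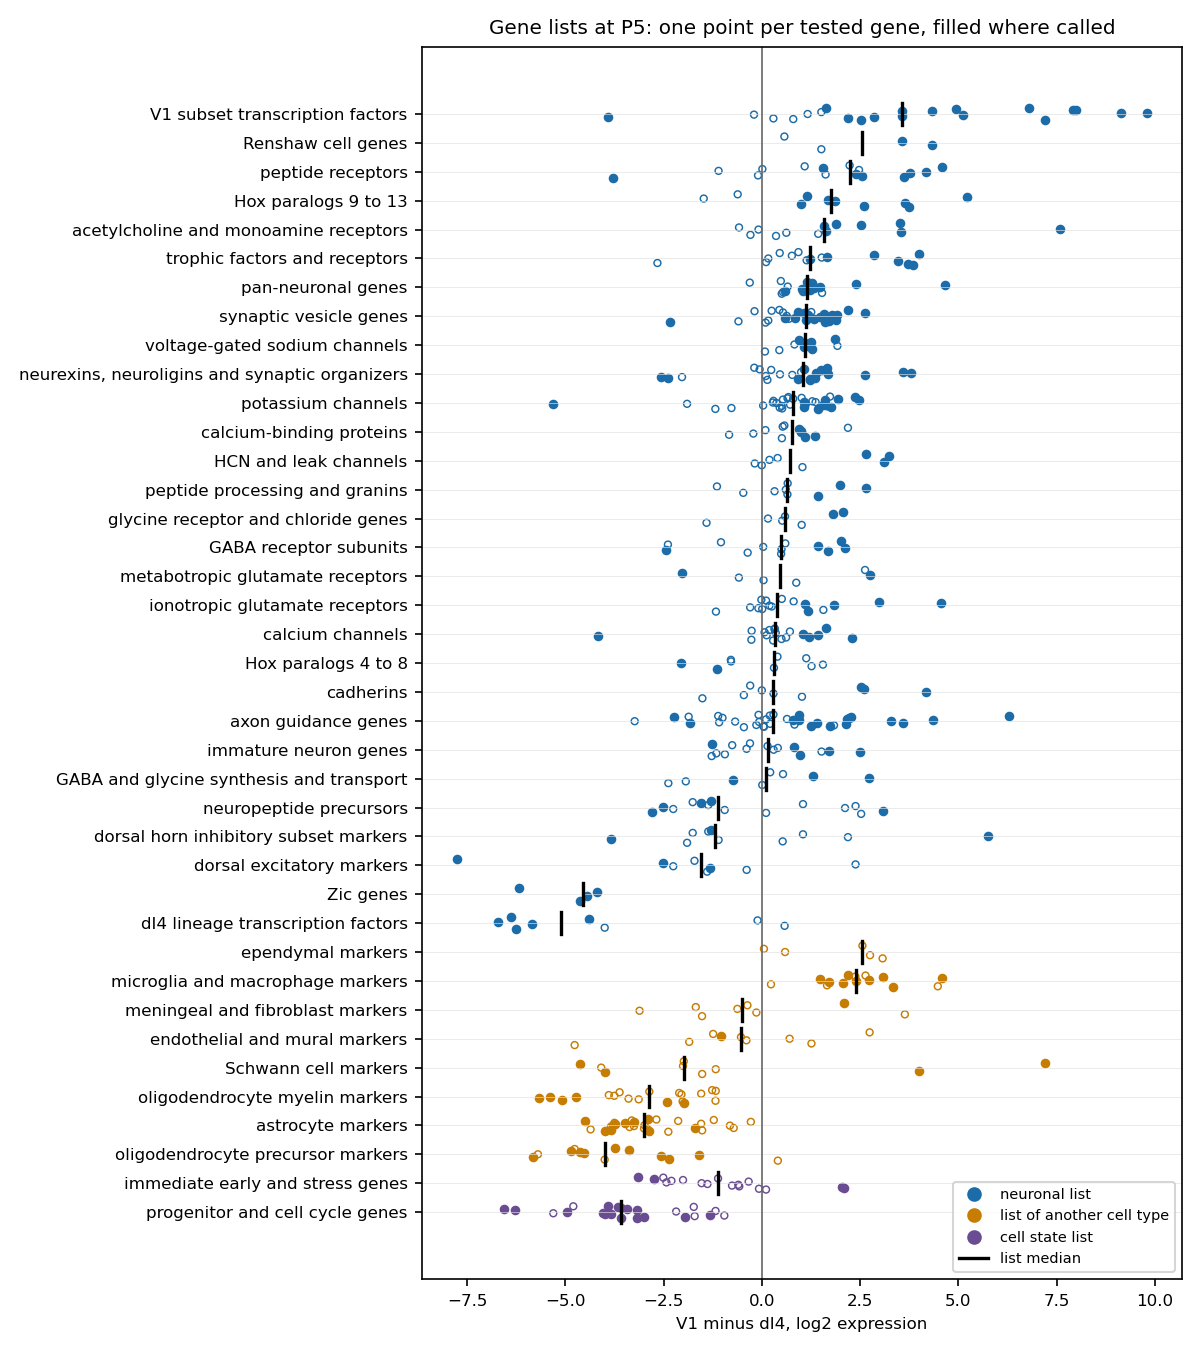
Difference V1 minus dI4 at P5 in log2 expression (x axis) of every tested gene of each list with at least 4 tested genes (y axis), filled where called, with a black bar at the list median. Lists of neuronal genes are blue, lists of other cell types orange and cell state lists purple; the medians run from 3.56 for the V1 subset transcription factors to -5.12 for the dI4 lineage factors, with the 3 glial lists between -2.86 and -4.0.

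Among the genes of GABA and glycine synthesis and transport, 2 of 8 were called higher in V1, with a median of 0.11 (leave-one-out counts of higher calls 2, 2, 2, 1 and 2). Slc6a5, the glycine transporter GlyT2 of glycinergic neurons, was at 13.60, 13.47 and 13.64 in V1 and at 10.59 and 11.08 in dI4 (2.74 ± 0.20 SE, adjusted p = 0.00577), and kept its call whichever array was left out. Slc32a1, the vesicular transporter for both transmitters, was at 13.64 to 13.71 against 12.34 and 12.41 (1.30 ± 0.14 SE, adjusted p = 0.0104). Slc6a9 and Slc6a11, GlyT1 and GAT3, which astrocytes use, were not called, at -1.94 ± 0.52 and -2.38 ± 0.72 (SE), and neither was Abat, which breaks GABA down (0.01 ± 0.14 SE). With the pan-neuronal centring, Slc6a5 stayed higher in V1, and Gad1 and Gad2 were among the genes called lower.

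Of 12 tested GABA receptor subunits, 4 were called higher in V1 and 1 lower, with a median of 0.49 (leave-one-out counts of higher calls 3, 2, 2, 0 and 2). Gabrb2 was at 11.30 to 11.59 in V1 and at 9.27 and 9.37 in dI4 (2.11 ± 0.16 SE, adjusted p = 0.00577). Gabra5, an alpha subunit of extrasynaptic receptors, was higher by 1.43 ± 0.26 (SE). Gabrg1, a subunit that glia also express, was lower, at 10.11 to 11.19 against 13.11 and 12.92 (-2.43 ± 0.36 SE, adjusted p = 0.0178). Gabbr1 and Gabrb1 were not called (0.49 ± 0.14 and 0.03 ± 0.16 SE).

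For glycine receptors and chloride handling, 2 of 7 genes were called higher in V1 and none lower, with a median of 0.59 (leave-one-out counts 1, 1, 1, 0 and 1). Glra2, the fetal alpha subunit, was at 12.40 to 12.48 in V1 and at 10.35 and 10.93 in dI4 (1.81 ± 0.22 SE, adjusted p = 0.0129). Glra1, the adult alpha subunit, was at 14.25, 13.42 and 13.48 against 11.23 and 12.07 (2.07 ± 0.40 SE, adjusted p = 0.0292), and lost its call whichever array was left out. Slc12a5, the chloride exporter KCC2 that makes GABA inhibitory in mature neurons, was at 14.14 to 14.34 against 12.90 and 13.61 (1.01 ± 0.26 SE, adjusted p = 0.0535). Slc12a2, the importer NKCC1, pointed the other way without a call (-1.41 ± 0.52 SE). Glrb and Gphn, the receptor's beta subunit and its synaptic anchor, were not called (0.59 ± 0.31 and 0.15 ± 0.14 SE).

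Of 16 tested ionotropic glutamate receptors, 5 were called higher in V1 and none lower, with a median of 0.38 (leave-one-out counts 4, 3, 3, 0 and 3), and 4 of the 5 encode NMDA receptor subunits. Grin2a was at 8.36, 7.62 and 8.38 in V1 and at 2.73 and 4.39 in dI4 (4.56 ± 0.58 SE, adjusted p = 0.014). Grin1, the obligatory subunit, was at 8.61 to 9.34 against 5.98 on both dI4 arrays (2.97 ± 0.26 SE, adjusted p = 0.00726). Grin2d (1.85 ± 0.23 SE), Grin2b (1.08 ± 0.17 SE) and the delta receptor Grid1 (1.18 ± 0.24 SE) were higher as well. The NMDA subunit Grin3a (0.19 ± 0.16 SE), the AMPA subunits Gria2 (-0.01 ± 0.14 SE) and Gria4 (0.81 ± 0.21 SE) and the kainate subunit Grik1 (0.25 ± 0.35 SE) were not called. Grin1, Grin2a and Grin2d stayed higher with the pan-neuronal centring, and Gria2, Grik1 and Grin3a were then called lower. Whether the receptor families differ from each other was not tested.

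Among the metabotropic glutamate receptors, Grm4, a presynaptic group III receptor, was higher in V1, at 9.72 to 9.84 against 6.26 and 7.83 (2.75 ± 0.49 SE, adjusted p = 0.0254). Grm3, a group II receptor that astrocytes also carry, was lower, at 9.63 to 9.96 against 12.15 and 11.46 (-2.04 ± 0.27 SE, adjusted p = 0.0148). Grm2, Grm5, Grm7 and Grm8 were not called, with differences from -0.59 to 2.62.

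Of 13 tested receptors for acetylcholine, serotonin, noradrenaline and dopamine, 7 were called higher in V1 and none lower. The median was 1.57 (5, 5 and 3 higher calls without V1 replicate 1, 2 or 3). With dim probe sets kept 4 were called higher and the median was 0.59. Beside Htr1b, Htr4, a serotonin receptor coupled to cAMP, was at 6.17, 6.45 and 6.57 in V1 and at 2.82 and 2.87 in dI4 (3.55 ± 0.18 SE, adjusted p = 0.00252). Htr2c, which couples to phospholipase C, was at 11.69 to 12.02 against 9.65 and 10.81 (1.63 ± 0.38 SE, adjusted p = 0.045). Htr1b and Htr4 kept their call whichever array was left out, and Htr2c lost it without 4 of the 5.

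The nicotinic subunits Chrna3, Chrna7 and Chrna4 were higher in V1. Chrna7 was at 10.29 to 10.79 in V1 and at 7.86 and 8.07 in dI4 (2.51 ± 0.22 SE, adjusted p = 0.00757), and Chrna3 at 9.27, 10.55 and 10.87 against 6.31 and 7.12 (3.52 ± 0.58 SE, adjusted p = 0.0218). Chrna4 differed by 1.88 ± 0.29 (SE, adjusted p = 0.019). The serotonin receptor Htr7 (0.62 ± 0.25 SE) and the adrenergic receptors Adra2a (-0.29 ± 0.17 SE) and Adra1a (1.43 ± 0.40 SE) were not called. The called serotonin and nicotinic receptors thus include Gi-, Gs- and Gq-coupled receptors and ligand-gated channels.

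Peptide receptors had a median of 2.23, with 7 of 15 called higher in V1 and 1 lower (leave-one-out counts of higher calls 4, 4, 3, 2 and 3). With dim probe sets kept the median was 0.30 with 2 higher calls, and with genes above the median on all 5 arrays it was 0.01 with 1. Oprd1, the delta opioid receptor, was at 8.91, 8.76 and 8.08 in V1 and at 3.28 and 4.70 in dI4 (4.59 ± 0.52 SE, adjusted p = 0.0114). Sstr4, a somatostatin receptor, was at 8.16 to 8.57 against 4.31 and 4.88 (3.76 ± 0.25 SE, adjusted p = 0.00485), and kept its call whichever array was left out. Sstr3 (4.17 ± 0.88 SE), Ntsr1 (3.62 ± 0.59 SE), Cckbr (2.55 ± 0.61 SE) and Tacr1, the substance P receptor (2.39 ± 0.44 SE), were higher too. Ntsr2, a neurotensin receptor that is also an astrocyte marker, was lower, at 6.38 to 7.17 against 10.67 and 10.26 (-3.79 ± 0.31 SE, adjusted p = 0.00638). Tacr3, Sstr2 and Oprm1 were not called (1.62 ± 0.53, -1.10 ± 0.56 and 2.23 ± 0.72 SE).

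**Figure D4:**
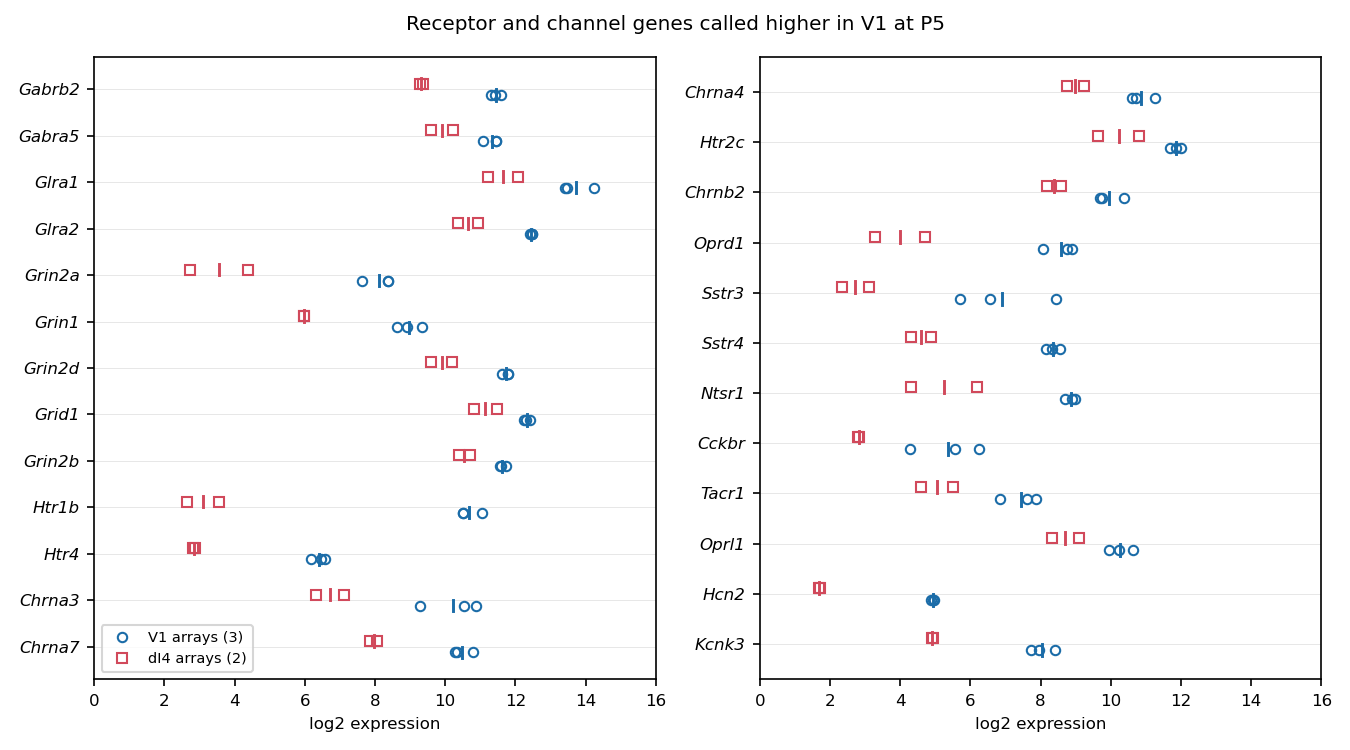
Log2 expression on each P5 array (x axis) of 25 receptor and HCN or leak channel genes called higher in V1 (y axis), with circles for the 3 V1 arrays, squares for the 2 dI4 arrays and short bars for the means. Htr1b, Oprd1 and Grin2a lie at 4.70 or below on both dI4 arrays and at 7.62 or above on every V1 array, while Htr2c, Glra1 and Gabra5 are bright in both classes.

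The peptides themselves were split. Of 14 tested neuropeptide precursors, 6 differed toward V1 and 8 toward dI4, and 1 was called higher in V1 and 4 lower. Leave-one-out counts were 0, 0, 2, 0 and 2 for higher and 3, 2, 2, 0 and 0 for lower calls. The median was -1.13, and -0.0018 with dim probe sets kept, where 3 precursors were called lower and none higher. Crh, corticotropin-releasing hormone, was at 11.19, 11.38 and 9.71 in V1 and at 7.55 and 7.79 in dI4 (3.09 ± 0.57 SE, adjusted p = 0.027). Penk, the enkephalin precursor, was at 10.63 to 10.99 against 12.04 and 12.66 (-1.55 ± 0.25 SE, adjusted p = 0.0217), and Adcyap1, the precursor of PACAP, at 3.07 to 3.83 against 6.02 and 6.29 (-2.81 ± 0.29 SE, adjusted p = 0.0103). Tac1 and Npy, given above, complete the 4. Nts, the neurotensin precursor, was not called (2.12 ± 0.79 SE). Of 9 tested granins and processing genes, Chga (2.66 ± 0.21 SE), the processing inhibitor Pcsk1n (1.99 ± 0.19 SE) and Vgf (1.42 ± 0.27 SE) were higher in V1 and none was lower, and Chgb, Scg3 and Scg5 were not called (leave-one-out counts of higher calls 2, 3, 2, 1 and 2).

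The sodium channel list had a median near that of the pan-neuronal genes, and the other channel lists lower ones. Of 10 tested voltage-gated sodium channel genes, 6 were called higher in V1 and none lower, with a median of 1.09 (leave-one-out counts 3, 2, 3, 0 and 1), and none was higher with the pan-neuronal centring. Scn1a differed by 1.87 ± 0.33 (SE, adjusted p = 0.0256), and Scn3a, Scn8a, Scn2a, Scn3b and the channel partner Fgf12 by 0.96 to 1.29. Of 31 potassium channel genes, 10 were higher and 1 lower, with a median of 0.80 (3, 1, 2, 0 and 7 higher calls, and 4 with dim probe sets kept). Kcna3, a Kv1 channel, was at 7.70 to 8.11 in V1 and at 4.82 and 6.13 in dI4 (2.36 ± 0.44 SE, adjusted p = 0.0275), and Kcnc1, the fast Kv3.1 channel, at 11.84 to 11.97 against 9.91 and 10.67 (1.61 ± 0.26 SE, adjusted p = 0.022). Kcnip3, a calcium-binding channel partner, was lower, but its V1 values spread from 5.13 to 8.94 (-5.31 ± 1.20 SE, adjusted p = 0.0417), and the call was lost without 4 of the 5 arrays.

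Hcn2, a channel of the hyperpolarisation-activated current, was at 4.96, 4.93 and 4.89 in V1 and at control level in dI4, at 1.69 and 1.71, at least 4.88-fold higher (adjusted p = 0.00161). Kcnk3, the TASK-1 leak channel, was at 7.74 to 8.40 against 4.94 and 4.90 (3.12 ± 0.24 SE, adjusted p = 0.00577). Both stayed higher with the pan-neuronal centring. Kcnj3, Kcnk1 and Kcnk2 were not called. Hcn2 and Kcnk3 lay below the array median in dI4, and no HCN or leak channel was called among genes above the median on all 5 arrays. Hcn2 was also near the V1 array medians of 4.95, 4.90 and 4.93, below the last, and passed the filter through V1 alone. Of 18 calcium channel genes, 5 were higher and 1 lower, with a median of 0.34 (leave-one-out counts of higher calls 4, 3, 4, 1 and 2). Cacng2, stargazin, which traffics AMPA receptors, was at 11.30 to 11.42 against 9.34 and 8.80 (2.30 ± 0.21 SE, adjusted p = 0.00823), and Cacna2d1, the alpha2delta-1 subunit, was at 2.83 to 2.89 in V1 and at 6.17 and 7.89 in dI4 (-4.16 ± 0.53 SE, adjusted p = 0.0141). Both kept their call whichever array was left out. Of 12 calcium-binding protein genes, 5 were higher and none lower, with differences of 0.95 to 1.34 (leave-one-out counts 0, 1, 0, 0 and 1).

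Genes of synaptic vesicle release were the list with the most higher calls. Of 31 tested, 20 were called higher in V1 and 1 lower, with a median of 1.12 beside 1.14 for the pan-neuronal genes (leave-one-out counts 14, 9, 10, 0 and 6). Vamp1, a vesicle SNARE of fast synapses, was at 12.57, 11.86 and 11.86 in V1 and at 9.20 and 9.72 in dI4 (2.64 ± 0.32 SE, adjusted p = 0.0129). Cplx1, complexin 1, was at 13.31 to 13.60 against 11.27 and 11.80 (1.91 ± 0.23 SE, adjusted p = 0.0126), and Syt2, the calcium sensor of fast inhibitory terminals, at 11.04 to 11.90 against 8.78 and 9.67 (2.18 ± 0.40 SE, adjusted p = 0.0265). Vamp1, Cplx1, Cplx2 and Bsn stayed higher with the pan-neuronal centring. Unc13b, a priming factor, was lower (-2.34 ± 0.44 SE, adjusted p = 0.0284), and Snap25, Syt1 and Rab3a were not called.

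Of 24 synaptic organizer genes, 12 were called higher in V1 and 2 lower, with a median of 1.04 (leave-one-out counts of higher calls 5, 5, 5, 1 and 8, and 7 with dim probe sets kept). Cbln4, a secreted cerebellin that binds neurexins, was at 12.37, 12.42 and 12.18 in V1 and at 8.19 and 8.87 in dI4 (3.79 ± 0.26 SE, adjusted p = 0.00501). Nxph4, a neurexophilin, was at 8.75 to 10.08 against 6.0 and 5.40 (3.59 ± 0.47 SE, adjusted p = 0.0148), and Lrrtm4, a postsynaptic neurexin partner, at 10.73 to 10.97 against 7.81 and 8.68 (2.63 ± 0.30 SE, adjusted p = 0.0119). C1ql1, a secreted C1q-like ligand also listed with oligodendrocyte precursors, was lower, at 5.00 to 5.08 against 7.70 and 7.52 (-2.57 ± 0.15 SE, adjusted p = 0.00319), and so was Slitrk2 (-2.38 ± 0.55 SE). Cbln4 and C1ql1 kept their call whichever array was left out. Of 9 cadherins tested, Cdh9 (4.18 ± 0.17 SE), Cdh7 (2.59 ± 0.29 SE) and Cdh4 (2.53 ± 0.30 SE), which mediate selective adhesion, were higher and none was lower (leave-one-out counts 3, 3, 3, 1 and 2).

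The called axon guidance genes were mostly higher in V1, and of all genes 12.8% were called higher and 9.91% lower. Of 35 tested, 14 were called higher in V1 and 2 lower, with a median of 0.29 (leave-one-out counts of higher calls 12, 6, 9, 3 and 7). Unc5a, a netrin receptor, was at 9.54, 9.36 and 9.19 in V1 and at 3.09 and 3.07 in dI4 (6.29 ± 0.17 SE, adjusted p = 0.00087). Sema3a, a secreted repellent, was at 11.25 to 11.76 against 7.32 and 7.01 (4.36 ± 0.23 SE, adjusted p = 0.00259), and Nrp2, a semaphorin coreceptor, at 12.40 to 12.48 against 10.47 and 9.97 (2.23 ± 0.20 SE, adjusted p = 0.00802). These 3 kept their call whichever array was left out. Epha3 (3.58 ± 0.47 SE), Sema3c (3.29 ± 0.46 SE) and Unc5d (2.26 ± 0.44 SE) were higher too. Unc5c, a relative of Unc5a, was lower, at 9.69 to 10.33 against 12.55 and 12.12 (-2.24 ± 0.28 SE, adjusted p = 0.0139), as was Sema6d (-1.82 ± 0.16 SE, adjusted p = 0.00783), and Ephb1, Robo1 and Plxna2 were not called.

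Trophic factors and their receptors had a median of 1.24, with 7 of 15 called higher in V1 and none lower (leave-one-out counts 5, 5, 6, 1 and 3). Fgf18 was at 10.17, 11.23 and 10.86 in V1 and at 6.86 and 6.97 in dI4 (3.84 ± 0.35 SE, adjusted p = 0.00802), and Fgf9 at 9.37 to 10.46 against 6.15 and 5.96 (3.72 ± 0.39 SE, adjusted p = 0.0102). Igf1, insulin-like growth factor 1, was at 11.26 to 12.10 against 8.30 and 8.02 (3.47 ± 0.30 SE, adjusted p = 0.00728). The GDNF family receptor Gfra1 (2.86 ± 0.31 SE) and its signalling partner Ret (1.66 ± 0.36 SE) were both higher. Ngfr, the p75 neurotrophin receptor, which Schwann cells also carry, was at 9.08 to 9.50 against 4.97 and 5.62 (4.0 ± 0.27 SE, adjusted p = 0.00497). Prx, a protein of peripheral myelin, was at control level, while of 9 tested Schwann cell markers Foxd3 and Ngfr were higher in V1, whichever array was left out, and Gpr37l1 and Sox10 lower (leave-one-out counts of lower calls 0, 4, 1, 0 and 0).

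Genes of immature neurons were close to the level of all genes. Of 15 tested, 4 were called higher in V1 and 1 lower, with a median of 0.14 (leave-one-out counts of higher calls 2, 1, 2, 1 and 0). Neurod1 (2.50 ± 0.55 SE), Dpysl5 (1.72 ± 0.18 SE), Crmp1 (0.96 ± 0.14 SE) and Gap43 (0.81 ± 0.19 SE), which act in late differentiation and axon growth, were higher. Sox4 was lower by its brightest probe set (-1.28 ± 0.18 SE, adjusted p = 0.0164), but the mean of all its probe sets differed by 0.02. Tubb2b, Stmn1 and Marcksl1 were not called.

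Glial genes were higher in the dI4 arrays. Of the 60 tested genes of the astrocyte, oligodendrocyte precursor and myelin lists, 25 were called lower in V1 and none higher, 59 had a negative difference, 54 had no overlap between the groups, and the median was -3.19 against 0.04 over all genes, of which 9.91% were called lower and 59.8% had no overlap. The neuronal lists together held 155 higher and 30 lower calls among 380 genes, with a median of 0.82, beside 12.8% higher and 9.91% lower over all genes. The summed signal of each glial list was lower on every V1 array than on either dI4 array.

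Of 28 astrocyte genes, 10 were called lower in V1, with a median of -2.99 (leave-one-out counts 7, 19, 6, 1 and 3), and 5 with dim probe sets kept, with a median of -2.92. Gjb6, connexin 30, was at 5.44, 3.96 and 4.75 in V1 and at 8.69 and 9.75 in dI4 (-4.51 ± 0.56 SE, adjusted p = 0.0136), and Sox9, a glial fate factor, at 5.85 to 6.78 against 10.04 and 9.42 (-3.49 ± 0.37 SE, adjusted p = 0.0104). Gli3, a transcription factor of the Hedgehog pathway, was at 2.55 to 2.75 against 6.92 and 5.88 (-3.74 ± 0.34 SE, adjusted p = 0.0081). Agt and Slc39a12 were lower by 3.98 and 3.84 on the log2 scale. V1 replicate 2 was the lowest of the V1 arrays in summed astrocyte signal, at 15.7 against 16.7 and 16.8, and leaving it out gave 19 calls. Aldoc, Atp1b2 and Fabp7 were not called by their brightest probe set (-0.28 ± 0.22, -0.81 ± 0.23 and -1.52 ± 0.54 SE) and were above 12 on every array. The other probe set of Aldoc differed by -3.08, and the mean of both by -1.68 and was called lower.

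Of 13 genes of oligodendrocyte precursors, 9 were called lower in V1 and none higher, with a median of -4.0 (leave-one-out counts 7, 7, 9, 4 and 4, and 6 calls with dim probe sets kept). Pdgfra, the growth factor receptor that defines these cells, was at 7.81, 7.81 and 8.25 in V1 and at 11.66 and 11.74 in dI4 (-3.74 ± 0.20 SE, adjusted p = 0.00284). Olig1 was at 9.26 to 9.51 against 12.77 and 12.76 (-3.39 ± 0.15 SE, adjusted p = 0.00224), and Bmp4, a secreted factor of committed precursors, at 3.41 to 4.12 against 9.09 and 10.24 (-5.82 ± 0.43 SE, adjusted p = 0.00577). These 3 kept their call whichever array was left out. Olig2 (-4.86 ± 0.94 SE), Sox10 (-4.64 ± 0.79 SE) and Sox8 (-4.54 ± 0.88 SE) were lower with a wider spread in V1. Gpr17 (-5.70 ± 1.58 SE), Cspg4 (-4.76 ± 1.22 SE) and Sapcd2 (0.41 ± 0.22 SE) were not called.

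Of 19 myelin genes, 6 were called lower in V1, with a median of -2.86 (leave-one-out counts 3, 13, 2, 1 and 1). With dim probe sets kept 1 was called, and among genes above the median on all 5 arrays 2 were, with a median of -2.10 in both. Aspa, aspartoacylase, was at 2.85, 2.83 and 2.77 in V1 and at 8.05 and 7.74 in dI4 (-5.08 ± 0.16 SE, adjusted p = 0.00102). Gjc3 and Myrf, connexin 29 and the factor that drives myelin genes, were at 3.02 to 5.25 and 1.85 to 4.56 in V1 and at 8.40 to 10.46 and 7.27 to 9.29 in dI4. Mbp, a main protein of compact myelin, was bright in both classes, at 13.88, 14.84 and 13.67 in V1 and at 15.31 and 15.48 in dI4 (-1.27 ± 0.40 SE, adjusted p = 0.0849). Cldn11 (-2.05 ± 0.65 SE) was likewise not called. V1 replicate 2 had the highest summed myelin signal of the V1 arrays, at 16.7 against 15.5 and 15.3, and without it 13 myelin genes were called.

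**Figure D5:**
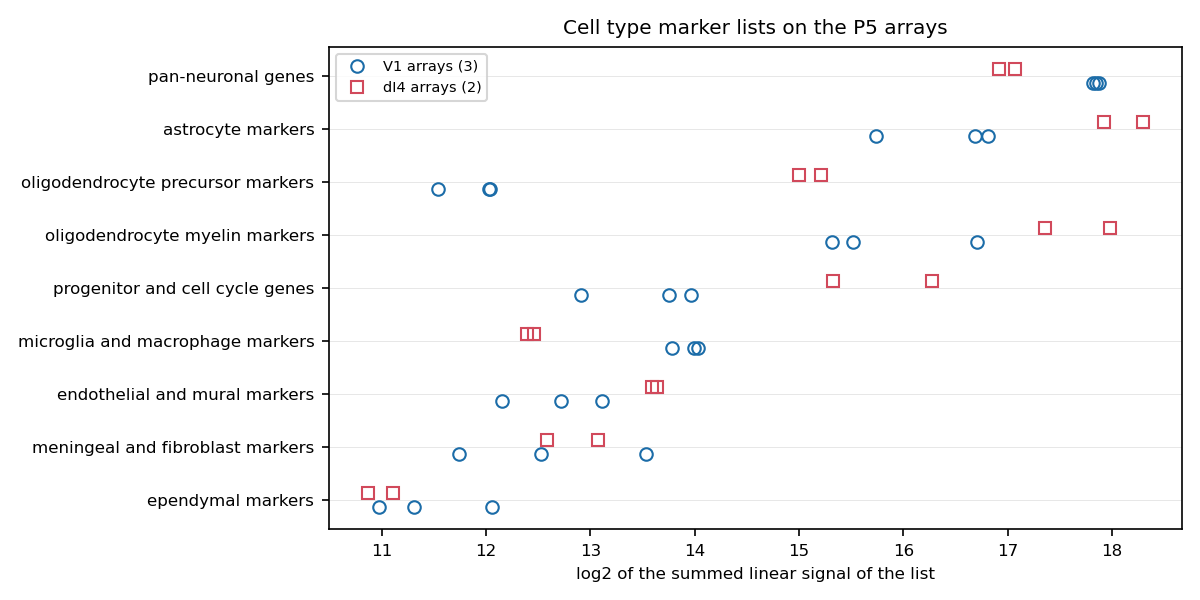
Log2 of the summed linear signal of each marker list (x axis) on each P5 array, with circles for the 3 V1 arrays and squares for the 2 dI4 arrays, for 9 lists (y axis). The dI4 arrays are above all V1 arrays for astrocyte, both oligodendrocyte and progenitor genes, and the V1 arrays are above the dI4 arrays for pan-neuronal genes (17.8 to 17.9 against 16.9 to 17.1) and for microglia (13.78 to 14.03 against 12.39 and 12.47).

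Genes of progenitors and of cell division were higher in dI4. Of 23 tested, 16 were called lower and none higher, with a median of -3.57 (leave-one-out counts 14, 9, 11, 4 and 10), and their summed signal was 12.9 to 13.97 in V1 and 15.3 to 16.3 in dI4. Pax3, a factor of dorsal progenitors, was at 3.31, 3.09 and 3.27 in V1 and at 10.56 and 9.01 in dI4 (-6.56 ± 0.49 SE, adjusted p = 0.00577). Top2a and Cdk1, which act in dividing cells, were at 3.28 to 4.41 and 3.89 to 4.95 against 8.19 to 9.52 and 7.66 to 9.01. Aurkb, a mitotic kinase, was at control level in V1, at 2.53 to 2.57, and at 7.08 and 5.97 in dI4, at least 14.8-fold lower in V1. Sox2, which marks progenitors and also astrocytes and oligodendrocyte precursors, was at 7.95 to 8.93 against 12.66 and 12.30 (-3.91 ± 0.37 SE, adjusted p = 0.00833). The progenitor and glial lists moved together, and their shares in each other's signal were not tested.

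Microglial genes were higher in V1. Of 14 tested, 9 were called higher and none lower, with a median of 2.39 (leave-one-out counts 4, 5, 4, 1 and 4). With dim probe sets kept 4 were called higher and the median was 1.66. C1qb, a complement subunit made by microglia, was at 10.89, 10.91 and 10.89 in V1 and at 7.49 and 8.15 in dI4 (3.07 ± 0.24 SE, adjusted p = 0.00577), and Fcrls at 7.30 to 8.08 against 4.38 and 4.48 (3.34 ± 0.28 SE, adjusted p = 0.00697). C1qc (4.59 ± 1.00 SE), Ctss (2.73 ± 0.45 SE), Ptprc (2.40 ± 0.52 SE) and Csf1r (2.20 ± 0.47 SE) were higher too. Tmem119, Trem2 and Siglech were at control level on all 5 arrays, and Lyz2 (4.48 ± 1.13 SE) and Aif1 (2.64 ± 1.04 SE) were not called. Microglia do not descend from the neural tube, where both drivers act, and the source of these transcripts was not tested.

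Other cell types gave few calls, beside 12.8% higher and 9.91% lower over all genes. Of 9 tested endothelial and mural markers, 1 was called lower in V1 and none higher, with Pecam1, Cdh5 and Eng at control level (lower calls 2, 0, 0, 0 and 0 with arrays left out). Of 8 meningeal markers, Col1a1 was called higher (2.09 ± 0.47 SE, adjusted p = 0.041, lost whichever array was left out), and none of 5 ependymal markers was called. The 5 ependymal markers all differed toward V1, with a median of 2.56. Their list summed to 12.06 on V1 replicate 1, 10.97 and 11.31 on the other V1 arrays and 10.87 and 11.11 in dI4. Among the motor neuron genes, Ache, acetylcholinesterase, was higher in V1, at 10.22 to 10.87 against 7.42 and 8.27 (2.66 ± 0.35 SE, adjusted p = 0.0148). Of 17 immediate early and stress genes, Fos (-3.16 ± 0.60 SE, adjusted p = 0.0288) and Egr1 (-2.75 ± 0.67 SE, adjusted p = 0.0484), which dissociation of tissue induces, were lower in V1, and the heat shock genes Hspa1a (2.03 ± 0.26 SE, adjusted p = 0.0141) and Hspa1b (2.10 ± 0.51 SE, adjusted p = 0.049) were higher. Without V1 replicate 1, 5 genes of that list were lower, and without V1 replicate 2 or either dI4 array none was.

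To set the P5 difference beside that at birth, the change of V1 minus dI4 from P0 to P5 was fitted on the arrays of both ages, with 2 near-identical V1 arrays at P0 averaged and counted once. Of the 11616 genes, 347 (2.99%) were called. The ages look normalized separately, and that and the spiked-control difference at P5 can enter these values. Without V1 replicate 2 at P0 39 genes were called, without the averaged V1 pair at P0 51, without dI4 replicate 1 or 2 at P0 68 or 62, and without dI4 replicate 1 at P5 167.

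Called changes were counted per list. Of 17 pan-neuronal genes, 5 had a called change, all toward V1, and the list's median difference was 0.26 at P0 and 1.14 at P5. Bmp4 differed by 0.01 at P0 and by -5.82 at P5 (change -5.83 ± 0.47 SE, adjusted p = 0.00129), and C1ql1, Ntsr2 and Aspa moved in the same direction. Gfap and Olig1 had called changes the other way, of 4.78 and 3.40. The astrocyte list had a median of -3.42 at P0 and -2.99 at P5, and the oligodendrocyte precursor list -1.51 and -4.0. The myelin list had a median of -0.17 at P0 and -2.86 at P5, with 2 called changes among 19 genes, and the microglial list -0.76 and 2.39, with none among 14. Hcn2 differed by 0.03 at P0 and by 3.23 at P5, and Unc5a by 2.19 and 6.29, with changes of 3.20 ± 0.15 and 4.10 ± 0.49 (SE, adjusted p = 6.47e-05 and 0.00914). Otp, Sp8, Foxp2 and En1 had no called change (0.58 ± 1.09, -0.89 ± 0.26, -0.36 ± 0.40 and 0.91 ± 0.31 SE).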

How the data were processed

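Values were the authors' deposited log2 expression values of 45101 probe sets per array, with Partek 6.6, RMA and GCRMA named in the submitters' processing notes without role or order. Pairs of P5 arrays held identical values at 1335 to 3024 probe sets, against 2 to 17 between replicate arrays of the other ages. The cause, and any effect on the spread between arrays, was not tested. Per the labels' protocols, between 1 and 5 ng of RNA from FACS-sorted cells was amplified before hybridisation, so ratios of dim transcripts may be distorted. Array number and spread, not read depth, limit the precision. Gene symbols came from the deposited table and were updated by gene identifier where the RefSeq table held it (3821 symbols). Probe sets with no symbol (5812) or several (1402) were set aside, and each gene was read by its probe set of highest mean. The tested members and gene lists were chosen with earlier results of these data known.

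A probe set entered the fit if it was above the array median on at least 2 of the 5 arrays. The fit used limma 3.58.1 in R 4.3.3 on the 3 V1 and 2 dI4 arrays, with 3 residual and 1.669 prior degrees of freedom, and Benjamini-Hochberg adjustment over 11616 genes. Control level means at or below 2.64, the highest unspiked bacterial control value on the P5 arrays, and a group below it on every array has a bound. The named genes were En1 and Ptf1a, the 12 largest called differences without overlap in each direction outside the other-cell lists and 6 in each direction within them, and from each list up to 6 called members in each direction and up to 3 uncalled members of highest mean (any member of lists of 9 or fewer). Some genes that this rule names are not reported here. On simulated data, 3.0% of changes of 1 log2 unit, 70.1% of 2 and 95.5% of 4 were recovered over 11616 genes, with 7 false calls. Known changes were put into 67, 67 and 66 genes, far fewer than the 2642 called in the data. Noise was normal and independent between arrays, with no shift of whole arrays. The rates therefore do not give the recovery in the real comparison. The alternatives were other normalizations, filters, probe set choices, variance priors, the replicate number as a block, all ages in 1 fit, and each array left out in turn.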

Additional observations from a re-analysis of the deposited data

Results flagged for a closer look

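For 50 list members or named genes the class difference at P5 differed from that at P0 in the test of the change itself (limma, adjusted p under 0.05), beside 2.99% of all genes. Genes outside the naming rule are given here because they passed this test, and were chosen after their values were seen. Values are the change of V1 minus dI4 from P0 to P5 on the log2 scale, and separate normalization of the ages and the lower spiked controls on the V1 arrays at P5 can enter them.

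Among transcription factors the change was Pou4f1 5.64, Tfap2b 3.32, Zic4 2.93 and Maf 1.10 toward V1, where the P0 difference had favoured dI4, and Onecut2 -5.06 and Foxd3 -1.01 toward dI4. Among Hox genes it was Hoxd10 1.50 and Hoxd11 2.51.

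For receptors and peptides the change was Oprd1 3.06, Tacr3 2.76, Sstr4 2.50, Grin1 2.24, Grin2b 1.14, Gabrb2 1.25 and Adcyap1 2.88. For channels it was Hcn2 3.20, Kcnk3 1.85, Cacna1a 1.45, Cacna2d2 1.11 and Cacng2 1.27. For release genes and synaptic organizers it was Unc13a 1.70, Rab3b 1.26, Stx1a 1.18, Cbln4 1.85, Nrxn2 1.06 and Chga 1.27.

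For guidance, adhesion and trophic genes the change was Unc5a 4.10, Sema3a 1.81, Plxna1 1.50, Efna3 1.14, Cdh4 2.21 and Igf1 2.28 toward V1, and Cdh10 -1.26 and Erbb4 -1.37 toward dI4. The probe sets of Cdh10 disagree in direction at P5. For pan-neuronal and growth genes it was Nefm 1.33, Nefl 0.82, Ina 1.10, Stmn2 1.05, Tubb3 1.02 and Crmp1 0.94.

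For glial and dividing-cell genes the change was Bmp4 -5.83, Gjc3 -5.69, Gjb6 -3.91, Aurkb -3.62, Aspa -3.60, Ntsr2 -3.50, C1ql1 -2.45 and Lhfpl3 -1.77 toward dI4. Gfap at 4.78 and Olig1 at 3.40 went toward V1, since their dI4 excess was larger at P0 than at P5.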

How the results depend on the processing

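The count of 2642 calls moved with the arrays left out, from 205 to 1608 (89 to 849 higher and 116 to 759 lower). The fit of all ages gave 5017 calls (2647 higher, 2370 lower), and no filter on dim probe sets 718 lower calls. Centring each array on its median gave 2835 higher calls and moved the median of all genes by 0.34. Centring on the pan-neuronal genes, added after the values were seen, moved it by -1.18 and gave 7883 calls (369 higher, 7514 lower). V1 and dI4 share the replicate numbers 1 and 2 alone, and nothing in the labels says that a number pairs arrays; with it as a replicate block 161 genes were called (42 higher, 119 lower), En1 among them. The other settings left each count within 1.5 times its value. The P0 to P5 count of 347 was 960 with the near-identical arrays entered separately, and 39 to 491 with arrays left out (51 without the averaged V1 pair at P0).

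Of 255 called genes among the named genes and list members, 50 stayed called whichever array was left out, 34 lost the call without each array in turn, and 254 kept their direction under every setting tried on single genes. Sox4 went to 0.0231 with the mean of its probe sets. The settings tried on single genes did not include the centring on the pan-neuronal genes. That centring moved every difference by -1.18, so called genes with a smaller positive difference changed sign. Syp, higher by 0.58 in the main fit, was then called lower. Sapcd2, not called, went to -5.93 and called with cross-hybridizing probe sets set aside and to -2.20 with the mean of its probe sets. Probe sets of Cdh10, Esrrg, Kcnma1, Nrxn3, Ntrk2 and Syn2 disagree in direction. The causes were not tested.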
